A study of Rattus norvegicus with 138 samples.

Results

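The nuclear genes of oxidative phosphorylation were examined in tibialis anterior (TA) muscle of rats after volumetric muscle loss (VML). The members were all symbols of the expression table that begin with Nduf or Atp5, that are Sdha, Sdhb, Sdhc or Sdhd, or that begin with Cox4, Cox5, Cox6, Cox7 or Cox8, with 1 pseudogene row removed. This gave 78 members among 16181 symbols. By complex they were 34 symbols of complex I, 6 assembly factors of complex I, 4 symbols of complex II, 17 of complex IV, 15 of complex V and 2 symbols named after complex V that are not subunits of it. The members were chosen by name alone and not by their values.

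Oxidative phosphorylation takes electrons from NADH at complex I and from succinate at complex II, passes them through complex III and cytochrome c to oxygen at complex IV, and uses the resulting proton gradient to make ATP at complex V. Complex II is encoded wholly in the nucleus, while a few subunits of the other complexes are encoded in mitochondrial DNA. Striated muscle is rich in mitochondria, and adult muscle fibres replace some subunits of complex IV with muscle forms, such as Cox6a2 and Cox8b, where most other tissues use the widely expressed forms Cox6a1 and Cox8a.

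The rats were inbred male Lewis rats of about 4 months. A 6 mm biopsy punch removed a piece from the middle of the left TA, which was then left without repair or repaired with an autologous minced muscle graft made from the excised tissue. The rats are labelled as running or non-running. Injured muscle was collected at 3, 7, 14 and 28 days post injury (DPI), with the uninjured TA of the other leg of some of the same rats as contralateral muscle. Control was both TA muscles of 2 rats of another numbered series, which were not operated on and are labelled Sham. The series and the injury therefore cannot be told apart in comparisons with control. Whole muscles were homogenised, so that in every result fewer cells of a type and less RNA per cell cannot be told apart. After filtering there were 4 control muscles, 22 contralateral and 42 injured muscles of non-running rats, and 12 contralateral and 34 injured muscles of running rats. Non-running injured muscles numbered 10, 16, 8 and 8 at 3, 7, 14 and 28 DPI, against 4, 10, 4 and 4 contralateral muscles, over both repair arms.

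Values are TPM, a transcript abundance that divides by transcript length and sums to a fixed total, so that they can be compared between genes and a gene's share falls when other genes take more. TPM does not give the number of reads behind each library. Libraries with fewer than 7000 symbols above 1 TPM, 13 in all, were dropped, and the others held 7866 to 10948 such symbols. The right TA of control rat TS4.038 had the fewest symbols of these and stood apart in several members, with Atp5b at 2184 TPM against 4233 to 4478 TPM in the other 3 control muscles. The list of adult fibre genes, which checks the labelled tissue, was high in control muscle, where its 29 symbols summed to between 374016 and 451224 TPM. Differences are log2 differences of TPM plus 1, tested with limma over 11328 genes that averaged over 1 TPM in at least 1 group, and a gene was called when its Benjamini-Hochberg adjusted p was under 0.05 and its log2 difference was beyond 1. Of the members 76 were tested, while Cox8c and Ndufa10l1 reached at most 0.13 and 0.44 TPM and were not. P-values measure the spread between these muscles.

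The summed level of the members was lowest at 3 DPI and rose with time. The 4 control muscles summed to 64112, 67950, 65351 and 60552 TPM, on average 6.45% of all TPM. Contralateral muscle at 3 DPI summed to 57284, 59318, 60315 and 64160 TPM, and at 28 DPI to 67402, 66721, 68089 and 67356 TPM. Every injured muscle at 3 DPI lay below all of these.

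Injured muscle at 3 DPI ranged from 22864 to 34049 TPM with a median of 30986 TPM. At 7 DPI the range was 30258 to 49485 TPM with a median of 40260 TPM, and at 14 DPI it was 47803 to 59103 TPM with a median of 54206 TPM. At 28 DPI injured muscle ranged from 48474 to 65669 TPM with a median of 60323 TPM, so that it still lay below all 4 contralateral muscles of that day but overlapped control. As a mean share of all TPM the members took 3.02%, 4.07%, 5.43% and 5.83% of injured muscle at the 4 times, against 6.55% over all non-running contralateral muscles.

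**Figure D1:**
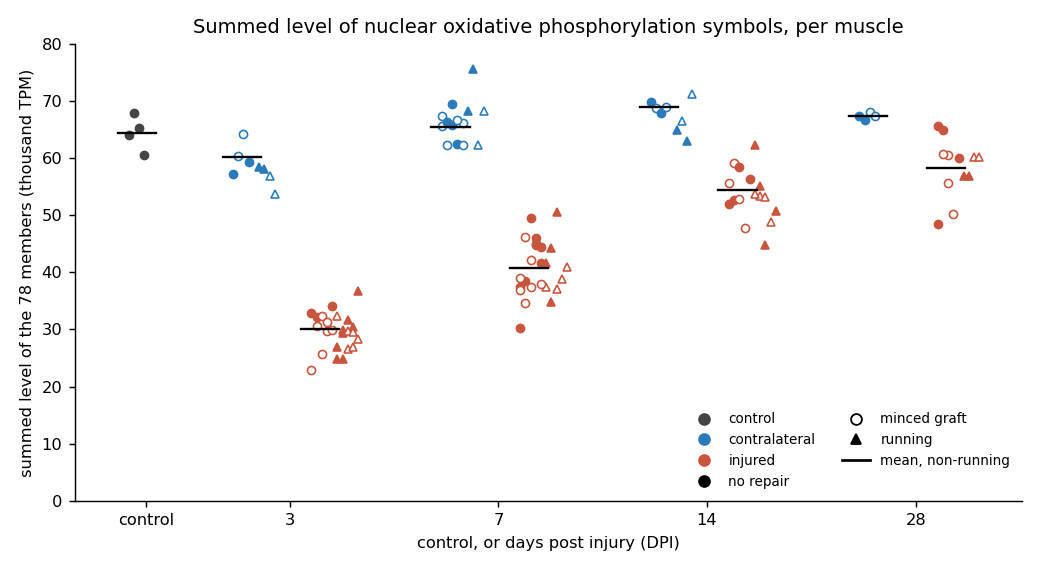
Summed TPM of the 78 members in each muscle (y axis) by group and DPI (x axis). Filled symbols are muscles of rats without repair and open symbols those of rats with a minced graft, circles are non-running and triangles running rats, and black lines are means of non-running rats. Injured muscle at 3 DPI, between 22864 and 34049 TPM in non-running rats, lies below every contralateral and control muscle.

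Against contralateral muscle of the same day, 26 of 76 members were called lower and 4 higher at 3 DPI, where 6.39% and 34.8% of all tested genes were called lower and higher. The counts at 7 DPI were 4 lower and 4 higher (background 2.62% and 43.8%), at 14 DPI 0 lower and 1 higher (background 0.344% and 23.4%), and at 28 DPI 0 lower and 1 higher (background 0.265% and 16%). Most members fell by less than the fold limit. By adjusted p alone, 66, 64, 53 and 36 members fell at 3, 7, 14 and 28 DPI (background 18.8%, 11.1%, 6.25% and 5.77%) and 7, 9, 7 and 5 rose (background 64.1%, 80.5%, 71.5% and 66.0%). The median member differed by -0.81, -0.61, -0.31 and -0.20, where the median of all tested genes was 0.60, 0.87, 0.54 and 0.43.

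The median of all genes was thus itself above 0 on every day, and the counts depend on the scale. After rescaling each muscle by a median-of-ratios size factor, the median of all genes was 0.06, 0.06, 0.01 and 0.03 at the 4 times, and the members called were 63 lower and 2 higher at 3 DPI, 66 and 1 at 7 DPI, 38 and 0 at 14 DPI, and 2 and 0 at 28 DPI. The shares of all genes called lower and higher on that scale were 14.53% and 21.23%, 13.28% and 20%, 5.05% and 11.98%, and 2.21% and 8.59%. By adjusted p alone, 70, 71, 71 and 70 members were lower and 3, 4, 3 and 2 higher on that scale, where 39%, 41%, 35.9% and 32.5% of all genes were lower and 43.1%, 46.1%, 36.8% and 34.7% higher. The median member differed by -1.45, -1.63, -1.0 and -0.74 on it. Members that did not pass at 28 DPI on the TPM scale could pass here: Cox8b was at -0.57 (adjusted p = 0.0152), Cox6a2 at -0.79, Sdhb at -0.74, Atp5b at -0.80, Ndufs6 at -0.75 and Ndufa4 at -0.67. With the libraries of few symbols kept, on the TPM scale, 18, 14, 0 and 0 members were lower by adjusted p alone and 4, 11, 1 and 1 higher at the 4 times, where 9.0%, 3.7%, 0.6% and 0.5% of all genes were lower and 48.6%, 82.6%, 44.5% and 35.6% higher. The median member was then at -0.81, 0.37, -0.31 and -0.20, so that its sign turned at 7 DPI. The median member was below the median of all genes on both scales on every day.

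The comparison of unrepaired injured muscle with control gave like counts, with 26 members called lower and 4 higher at 3 DPI (background 4.24% and 48.3%), 6 and 5 at 7 DPI (background 2.42% and 45.6%), 0 and 2 at 14 DPI (background 0.547% and 25%) and 0 and 1 at 28 DPI (background 0.212% and 21.1%). The median member differed by -0.89, -0.56, -0.20 and -0.10 from control, against 0.96, 0.91, 0.53 and 0.52 for all tested genes. With size factors these counts became 68 and 3, 67 and 1, 23 and 0, and 6 and 0, where 16.85% and 24.5%, 14.22% and 21.9%, 5.9% and 15.8%, and 3.17% and 11.48% of all genes were called. The injured muscles without repair enter both comparisons, so they are given side by side and do not support each other. At 3 DPI all 10 injured muscles lay below all 4 contralateral muscles for 66 of the 76 tested members and above them for 4, where all tested genes gave 15.06% and 55.01%.

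**Figure D2:**
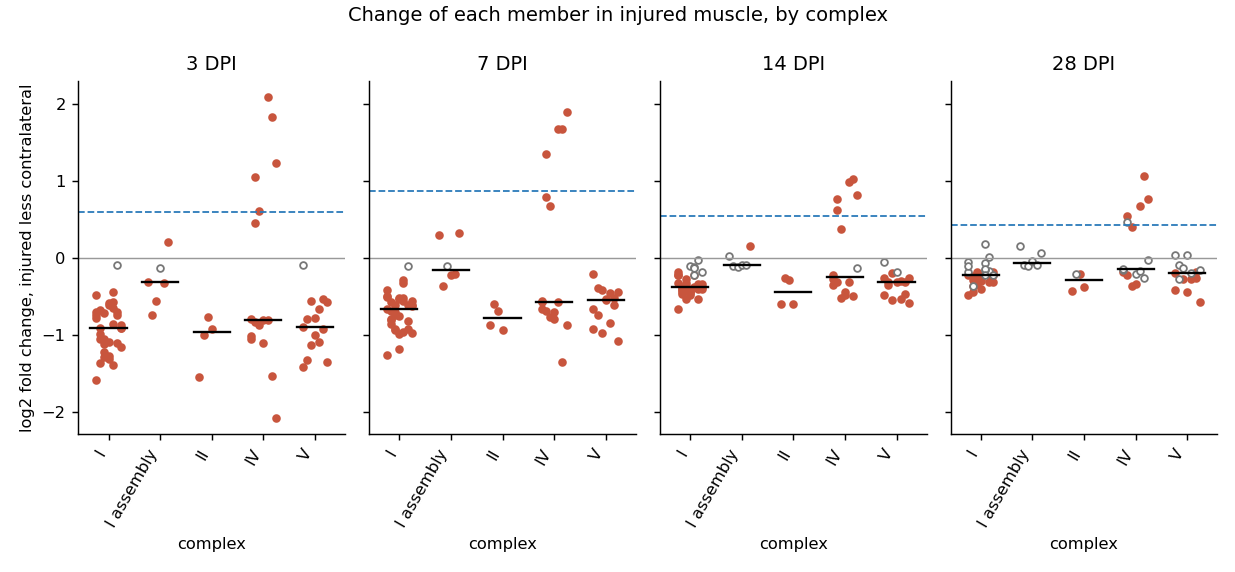
Log2 difference of injured against contralateral muscle (y axis) for each of 74 tested members by complex (x axis), with 1 panel per day. Red points passed adjusted p under 0.05 and open grey points did not, black lines are medians and the dashed blue line is the median of all tested genes. Complexes I, II and V lie below 0 on each day as groups, with medians of -0.91, -0.97 and -0.90 at 3 DPI, while complex IV is split between lower and higher symbols.

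Adult fibre genes fell with most members at 3 DPI, while markers of leukocytes and fibroblasts rose. Of 29 adult fibre genes, 24 were called lower and 0 higher at 3 DPI with a median of -1.99, and 0 lower and 1 higher at 28 DPI with a median of -0.19. By adjusted p alone 9 were lower and 2 higher at 28 DPI, and with size factors 17 and 1, with a median of -0.73. Their sum was 301194 to 343509 TPM in contralateral and 41088 to 109993 TPM in injured muscle at 3 DPI. All 22 tested leukocyte markers were called higher at 3 DPI with a median of 4.31, and 22, 20 and 18 were at 7, 14 and 28 DPI, with medians of 3.36, 1.96 and 1.66. Their sum was 67 to 110 TPM in control, 191 to 496 TPM in contralateral muscle at 3 DPI and 6802 to 11383 TPM in injured muscle at 3 DPI. Ms4a1 alone of the 25 listed symbols present was at 0 in every control muscle. All 11 fibroblast genes were called higher on each day, with a sum of 88.5 to 262.4 TPM in control, 670 to 1551 TPM in contralateral muscle at 3 DPI and 5525 to 18425 TPM in injured muscle at 3 DPI, and none was at 0 in every muscle of a group. The part of these cell types in the members' levels was not tested. Set against the fibre genes of the same muscle, the members summed to 0.134 to 0.182 of the fibre sum in control, 0.173 to 0.204 in contralateral muscle at 3 DPI and 0.299 to 0.557 in injured muscle at 3 DPI, so that this ratio was higher in every injured muscle of that day. At 7 DPI it was 0.201 to 0.346, above all 4 control muscles but overlapping contralateral muscle of 3 DPI. At 14 and 28 DPI it was 0.144 to 0.190 and 0.142 to 0.203, overlapping control. The ratio in contralateral muscle of these later days is not given here.

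In complex I, the entry point of electrons from NADH, 13 of 33 tested symbols were called lower at 3 DPI and 32 fell by adjusted p, with none higher. The summed level was 16862, 17854, 17040 and 16640 TPM in control, 14774, 15049, 15259 and 15995 TPM in contralateral muscle at 3 DPI, and 5876 to 8899 TPM with a median of 8105 TPM in injured muscle at 3 DPI. By 28 DPI it was 12625 to 17007 TPM with a median of 15613 TPM, and 21 symbols were still lower by adjusted p with a complex median of -0.23. The core subunits, which carry the flavin and iron-sulphur clusters and are conserved from bacteria, had the lower median of the subunit classes: 6 of 7 were called lower at 3 DPI with a median of -1.28, against 7 of 26 accessory subunits with a median of -0.82. By 28 DPI these medians were -0.37 and -0.23. This split by class is a description and was not tested.

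Ndufs7, which carries the last iron-sulphur cluster before ubiquinone, stood at 582.0, 669.9, 651.0 and 647.1 TPM in contralateral muscle at 3 DPI and at 126.95 to 251.8 TPM with a median of 208.2 TPM in injured muscle. The groups did not overlap, and the difference was -1.59 (SE 0.135, limma adjusted p = 4.86e-19). It was -1.27 at 7 DPI, -0.66 at 14 DPI and -0.48 at 28 DPI (adjusted p = 0.00122), with injured medians of 310.0, 492.7 and 582.5 TPM. Ndufs3, another core subunit of the matrix arm, fell by 1.32 at 3 DPI (SE 0.123, limma adjusted p = 4.69e-17), from 367.9 to 428.4 TPM in contralateral muscle to 108.7 to 181.8 TPM, and by 0.40 at 28 DPI (adjusted p = 0.00286).

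Of the accessory subunits of complex I, Ndufb9, in the membrane arm, was at 873.0 to 987.5 TPM in contralateral muscle and 295.0 to 452.2 TPM in injured muscle at 3 DPI, a difference of -1.16 (SE 0.121, limma adjusted p = 7.02e-15) that came to -0.32 at 28 DPI (adjusted p = 0.0153). Ndufs6, a zinc-binding accessory subunit, differed by -0.87 at 3 DPI and -0.22 at 28 DPI, where it did not pass (adjusted p = 0.132). Ndufa8, a further accessory subunit, differed by -0.91 (SE 0.0869), -0.86, -0.44 and -0.45 at the 4 times (limma adjusted p = 6.98e-06 at 28 DPI). At 28 DPI its 246.6 to 348.2 TPM in injured muscle lay below all 4 contralateral muscles at 388.4 to 420.6 TPM, where 5.54% of all tested genes did. The exception at 3 DPI was Ndufs5, an accessory subunit chosen here after its values were seen, which stood at 309.7 to 342.7 TPM in contralateral and 263.6 to 329.8 TPM in injured muscle, with overlap and a difference of -0.09 (adjusted p = 0.28). With size factors it was at -0.74 (adjusted p = 1.53e-10).

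The 6 assembly factors, which help to build complex I but are not part of it, had medians nearer 0, a difference from the subunits that was not tested. At 3 DPI 0 were called, 4 fell and 1 rose by adjusted p, and the median was -0.32, while at 28 DPI 0 passed in either direction and the median was -0.06. Ndufaf3, an early assembly factor, fell by 0.75 at 3 DPI (SE 0.0856, limma adjusted p = 5.1e-13), from 50.82 to 54.52 TPM to 22.40 to 33.86 TPM, and differed by -0.09 at 28 DPI (adjusted p = 0.364). Ndufaf5, which modifies Ndufs7 during assembly, was at 31.39 to 37.29 TPM in contralateral and 26.69 to 36.67 TPM in injured muscle at 3 DPI and differed by -0.13, without passing. It was at -0.76 on the size factor scale (adjusted p = 7.3e-11). The member that rose at 3 DPI was Ndufaf7, a mitochondrial methyltransferase, with a difference of 0.20. On the size factor scale it was at -0.39 (adjusted p = 1.59e-06), so its direction depended on the scale. It was named after its values were seen.

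All 4 subunits of complex II, succinate dehydrogenase, fell at 3 DPI by adjusted p and 2 of them, Sdha and Sdhb, were called. The sum was 2302, 2553, 2462 and 1725 TPM in control, 1964, 2185, 2099 and 2264 TPM in contralateral muscle at 3 DPI and 804 to 1186 TPM in injured muscle at 3 DPI, and 1626 to 2423 TPM at 28 DPI. Sdha, the flavoprotein that oxidises succinate, was at 431.1, 486.2, 498.8 and 520.4 TPM in contralateral muscle against 121.3 to 199.3 TPM in injured muscle at 3 DPI, a difference of -1.55 (SE 0.159, limma adjusted p = 4.61e-15). In control it was 202.3 TPM in the right TA of rat TS4.038 and 481 to 553 TPM in the others, so 1 control muscle lay near the injured range. Sdhb, the iron-sulphur subunit, fell by 1.01 at 3 DPI and differed by -0.21 at 28 DPI (adjusted p = 0.102). The membrane anchors Sdhc and Sdhd fell by 0.77 and 0.93 at 3 DPI, and at 28 DPI Sdhd was still at 417.3 to 607.6 TPM against 670.6 to 693.5 TPM in contralateral muscle (-0.38, adjusted p = 0.00567) while Sdhc was at -0.21 (adjusted p = 0.0463).

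In complex V, the ATP synthase, 6 of 15 subunits were called lower at 3 DPI and 14 fell by adjusted p, with a median of -0.90, and 8 were still lower by adjusted p at 28 DPI with a median of -0.20. The sum was 20550 to 25240 TPM in control, 20660, 21838, 22138 and 23695 TPM in contralateral muscle at 3 DPI and 8664 to 12456 TPM in injured muscle at 3 DPI, and reached 17350 to 24103 TPM at 28 DPI. Of the 5 subunits of the catalytic head, 4 were called lower at 3 DPI (median -1.13), and of the 4 stalk subunits 0 were, although all 4 fell by adjusted p (median -0.79).

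Atp5b, the catalytic beta subunit and the member with one of the highest levels, stood at 3819, 4261, 4478 and 4653 TPM in contralateral muscle at 3 DPI and at 1328 to 1938 TPM with a median of 1685 TPM in injured muscle. The difference was -1.33 (SE 0.128, limma adjusted p = 2.33e-16) and came to -0.27 at 28 DPI, where it just missed the limit (adjusted p = 0.0546). Atp5a1, the alpha subunit beside it, was at 2232, 2566, 2568 and 2654 TPM in contralateral and 722 to 1073 TPM in injured muscle at 3 DPI, fell by 1.42 (SE 0.129, adjusted p = 1.5e-17) and was still lower by 0.42 at 28 DPI (adjusted p = 0.00336).

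The c ring, the rotating part in the membrane, is built from an identical mature protein made by Atp5g1, Atp5g2 and Atp5g3, and these 3 genes moved differently. Atp5g1 was at 1139 to 1332 TPM in contralateral muscle at 3 DPI and 338.1 to 542.1 TPM in injured muscle, and differed by -1.36 (SE 0.147, limma adjusted p = 3.4e-14), -1.08, -0.59 and -0.58 at the 4 times. Atp5g2 was at 715.2 to 776.7 TPM in contralateral and 581.7 to 801.8 TPM in injured muscle at 3 DPI, with overlap, and differed by -0.10 (SE 0.064, adjusted p = 0.155), -0.21, -0.05 and 0.04, and on the size factor scale by -0.74, -1.24, -0.73 and -0.50. Atp5g3 lay between them at -0.80, -0.39, -0.31 and -0.09. Atp5g2 was thus higher than Atp5g1 in injured muscle at 3 DPI, by medians of 700.3 and 512.9 TPM, and lower in contralateral muscle of that day, by medians of 751.4 and 1266 TPM. Atp5g2 and Atp5g3 were chosen after their values were seen, and the difference between the 3 genes was not tested.

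**Figure D3:**
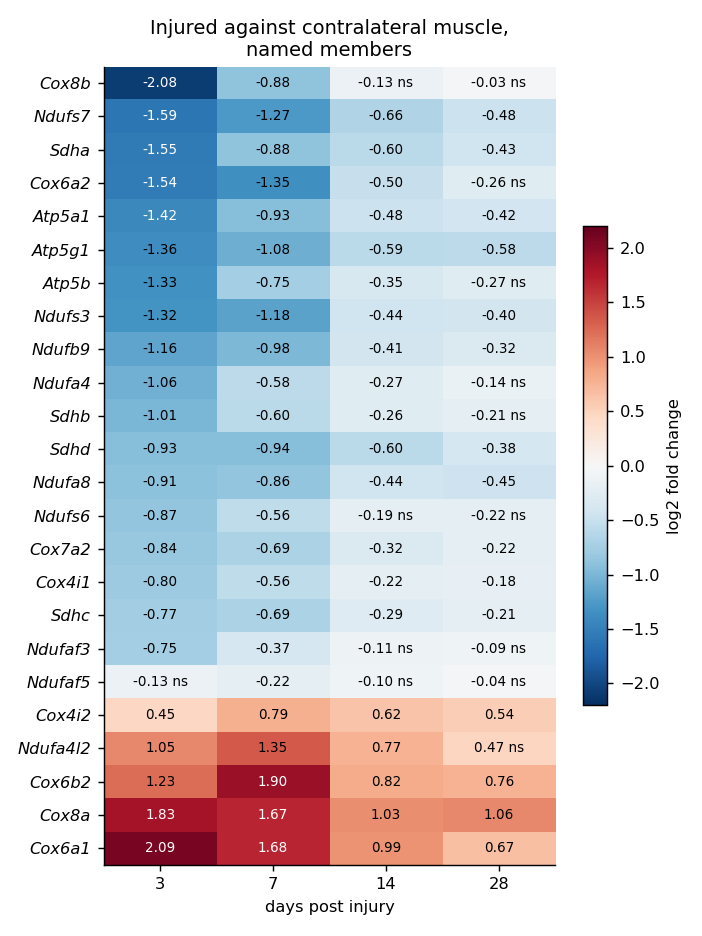
Log2 difference of injured against contralateral muscle for the 24 named members (rows) at 3, 7, 14 and 28 DPI (columns), with the value in each cell and ns where the adjusted p was 0.05 or above. The lowest value is Cox8b at 3 DPI (-2.08) and the highest Cox6a1 at 3 DPI (2.09).

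Complex IV, cytochrome c oxidase, held the member that fell most at 3 DPI, Cox8b, and 6 of the 7 that rose by adjusted p. Of its 16 tested symbols 5 were called lower and 4 higher at 3 DPI, and by adjusted p 10 fell and 6 rose. The sum was 20853 to 22050 TPM in control, 19632, 20003, 20581 and 21953 TPM in contralateral muscle at 3 DPI, 7366 to 11301 TPM in injured muscle at 3 DPI and 16677 to 21902 TPM at 28 DPI. All 5 subunits with a single form fell at 3 DPI (median -0.87), whereas of the 10 tested symbols for subunits with several forms 5 fell and 5 rose. The symbols that rose at 3 DPI were Cox4i2, Cox6a1, Cox6b2, Cox8a, Ndufa4l2 and Cox7a2l, and all but Cox7a2l are alternative forms of, or a relative of, a subunit with a muscle or main form. Cox7a2l, a factor that joins complexes III and IV and that was named after its values were seen, was at 118.0 to 131.8 TPM in contralateral and 140.6 to 212.0 TPM in injured muscle at 3 DPI (0.61, adjusted p = 3.18e-13). On the size factor scale it differed by -0.03 at 3 DPI and -0.34 at 7 DPI, so its direction depended on the scale.

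Subunit 6a has the muscle form Cox6a2 and the widely expressed form Cox6a1. Cox6a2 was at 3942, 3963, 3992 and 5260 TPM in control, 3782, 3847, 4003 and 3896 TPM in contralateral muscle at 3 DPI, and 644.7 to 1636 TPM with a median of 1391 TPM in injured muscle at 3 DPI. Cox6a1 was at 111.0, 120.1, 109.5 and 99.7 TPM in control, 141.01, 120.84, 117.3 and 142.4 TPM in contralateral muscle and 427.5 to 717.7 TPM with a median of 570.0 TPM in injured muscle at 3 DPI. Neither gene overlapped between injured and contralateral muscle of that day. Cox6a2 differed by -1.54 (SE 0.147, limma adjusted p = 1.85e-16), -1.35, -0.50 and -0.26 at the 4 times, the last not passing (adjusted p = 0.113). Cox6a1 rose by 2.09 (SE 0.139, adjusted p = 7.12e-25), 1.68, 0.99 and 0.67 (adjusted p = 2.34e-05 at 28 DPI). At 28 DPI injured muscle held 170.6 to 278.9 TPM of Cox6a1, above all 4 contralateral muscles at 129.97, 135.78, 125.36 and 123.23 TPM. On that day 59.57% of all tested genes lay above all contralateral muscles in this way.

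Subunit 8 has the muscle form Cox8b and the widely expressed form Cox8a, and showed the same order. Cox8b was at 3429, 3465, 3463 and 4213 TPM in control, 3367, 3692, 3634 and 4102 TPM in contralateral muscle at 3 DPI and 349.1 to 1293 TPM with a median of 873.3 TPM in injured muscle. Cox8a was at 110.3, 123.3, 113.2 and 136.1 TPM in control, 177.7, 144.5, 158.9 and 179.0 TPM in contralateral muscle and 481.5 to 725.1 TPM with a median of 605.6 TPM in injured muscle. Injured muscle did not overlap either set for either gene at 3 DPI. Cox8b differed by -2.08 at 3 DPI (SE 0.168, limma adjusted p = 3.9e-20) and -0.88 at 7 DPI, and by -0.13 and -0.03 at 14 and 28 DPI without passing (adjusted p = 0.494 and 0.876). Cox8a stayed higher at all 4 times, at 1.83 (SE 0.13, adjusted p = 2.48e-23), 1.67, 1.03 and 1.06 (adjusted p = 4.1e-11 at 28 DPI), and at 28 DPI it was at 228.7 to 409.2 TPM in injured against 124.27, 131.96, 121.5 and 128.28 TPM in contralateral muscle. On the size factor scale Cox6a1 and Cox8a remained above 0 on every day, at 1.44, 0.66, 0.30 and 0.13 and at 1.19, 0.65, 0.35 and 0.53, although Cox6a1 did not pass at 28 DPI there (adjusted p = 0.413).

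**Figure D4:**
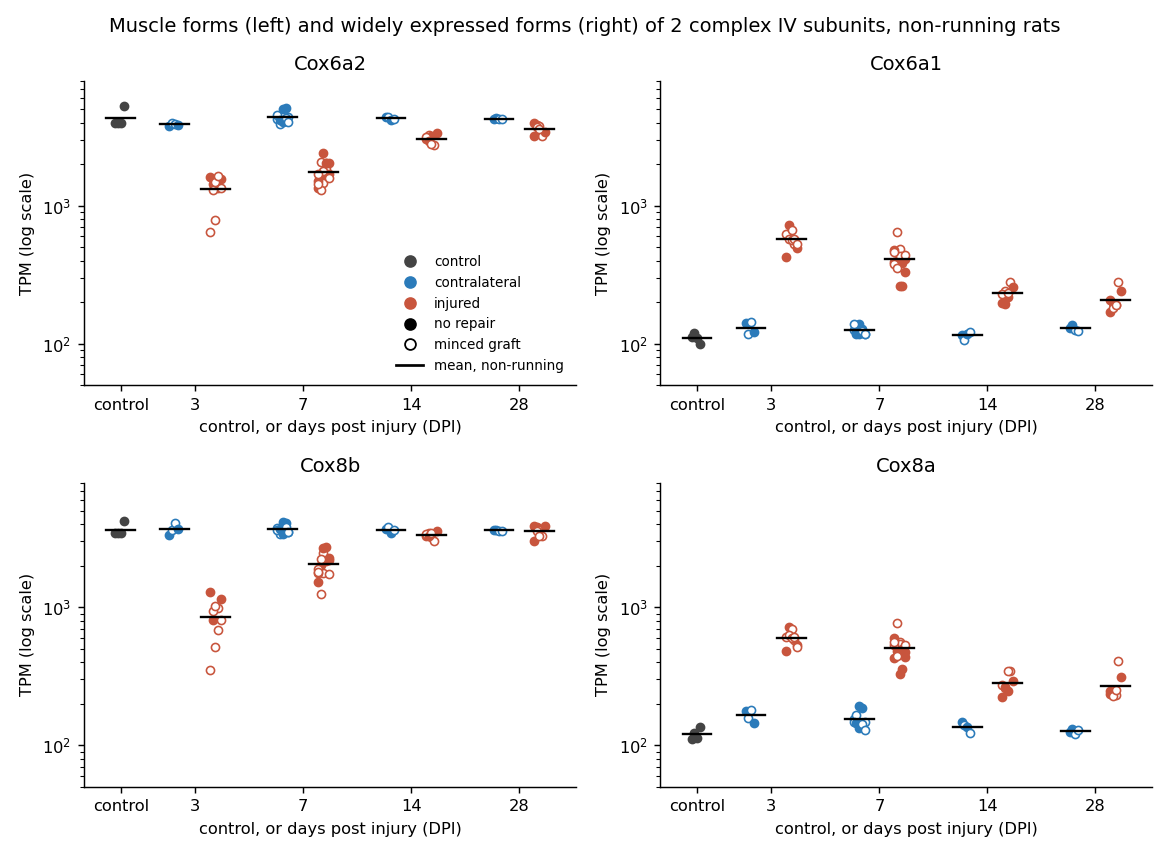
TPM on a log axis (y) of the muscle forms Cox6a2 and Cox8b and the widely expressed forms Cox6a1 and Cox8a in each muscle, by group and DPI (x). Symbols are as in the plot of summed levels. At 3 DPI Cox6a1 lies between 427.5 and 717.7 TPM in injured muscle of non-running rats and between 117.3 and 142.4 TPM in contralateral muscle.

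The promoters of Cox6a2, Cox8b and Cox8a are shown because these muscle forms and the widely expressed Cox8a moved in opposite directions in injured muscle. They are the 250 bases before the transcript start, 5′ to 3′ on the gene's strand, from RefSeq on build GRCr8, a newer rat build than the one used for the expression values. Cox6a2 is at chr1:192219717-192219966, Cox8b at chr1:205408274-205408523 and Cox8a at chr1:213833624-213833873, all on the minus strand. Capitals mark motif matches: in Cox6a2 the E-box CAGCTG and a MEF2 motif, in Cox8b the same E-box in 2 places and the TATA box TATAAAA, and in Cox8a CTTCCGG, the reverse strand of the ETS motif CCGGAAG, in 2 places.
Cox6a2: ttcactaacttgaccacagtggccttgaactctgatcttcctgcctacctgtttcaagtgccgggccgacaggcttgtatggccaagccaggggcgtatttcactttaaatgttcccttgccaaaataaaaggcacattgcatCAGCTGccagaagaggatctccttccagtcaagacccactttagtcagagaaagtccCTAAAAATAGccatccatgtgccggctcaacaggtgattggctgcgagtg
Cox8b: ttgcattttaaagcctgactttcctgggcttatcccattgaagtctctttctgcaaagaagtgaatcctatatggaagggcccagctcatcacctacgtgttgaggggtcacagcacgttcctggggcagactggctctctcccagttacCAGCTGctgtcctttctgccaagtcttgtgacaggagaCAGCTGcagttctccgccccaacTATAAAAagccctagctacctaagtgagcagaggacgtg
Cox8a: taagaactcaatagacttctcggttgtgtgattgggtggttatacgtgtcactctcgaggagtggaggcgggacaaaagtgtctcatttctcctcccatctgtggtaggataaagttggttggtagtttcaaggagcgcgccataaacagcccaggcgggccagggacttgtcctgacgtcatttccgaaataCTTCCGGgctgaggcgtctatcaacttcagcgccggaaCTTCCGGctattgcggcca
The E-box is bound by myogenic factors such as MyoD, MEF2 factors act with them in muscle genes, and ETS family factors such as GABP act at many promoters of mitochondrial genes. The MEF2 match in Cox6a2 lies 50 to 41 bases before the start, those in Cox8b lie 100 to 95 and 62 to 57 (CAGCTG) and 39 to 33 (TATAAAA), and those in Cox8a 57 to 51 and 19 to 13. Cox6a1 and Cox4i2 had no entry.

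Over all 27457 promoters of the same length, searched on both strands, 11.9% held CAGCTG, 7.7% CCGGAAG, 5.4% TATAAAA and 0.6% the MEF2 motif. Of the 68 members with a promoter 9 (13.2%) held CAGCTG, 16 (23.5%) CCGGAAG, 2 (2.9%) TATAAAA and 1 (1.5%), Cox6a2, the MEF2 motif. The motif of NRF1, a factor known for mitochondrial genes, was in 6 members (8.8%) and 0.8% of all promoters, and the motif AAGGTCA of estrogen-related receptors in 6 members (8.8%) and 3.8% of all. These matches are a description of the letters and overlap no other searched motif in the 3 promoters printed.

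The ratio of the muscle form to the widely expressed form in the same muscle does not depend on the scale, and it moved furthest in these 2 subunits. The log2 ratio of Cox6a2 to Cox6a1 was 4.89 ± 0.17 (SD, n = 4) in contralateral and 1.16 ± 0.59 (SD, n = 10) in injured muscle at 3 DPI, a difference of -3.73 (exact permutation test, two-sided, p = 0.002, adjusted over 16 ratios and days 0.004). The differences at 7, 14 and 28 DPI were -3.02 (permutation p = 2e-05, adjusted 8e-05), -1.48 and -0.92 (exact permutation p = 0.00404 for both, adjusted 0.00462). The log2 ratio of Cox8b to Cox8a was 4.48 ± 0.18 (SD, n = 4) in contralateral and 0.44 ± 0.68 (SD, n = 10) in injured muscle at 3 DPI, and differed by -4.04, -2.56, -1.16 and -1.09 at the 4 times with the same p-values. These are the smallest p-values that the permutations can give, and the injured and contralateral muscles did not overlap on any day. The permutations treated the injured and contralateral muscles of the same rat as separate. In control muscle the ratios were 5.26 and 4.90. As a share of the pair, Cox6a1 made up 1.86% to 2.94% in control, 21.04% to 48.95% at 3 DPI and 4.64% to 8.05% at 28 DPI, and Cox8a made up 3.12% to 3.44%, 27.1% to 63.5% and 5.83% to 11.1%.

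Subunit 4 has the main form Cox4i1 and the form Cox4i2, which is known from lung and low oxygen. Cox4i1 was at 1676 to 1876 TPM in contralateral and 801.5 to 1119 TPM in injured muscle at 3 DPI, without overlap, and fell by 0.80 (SE 0.0802, limma adjusted p = 1.39e-15). Cox4i2 was low throughout, at 7.12, 4.79, 5.06 and 7.29 TPM in contralateral and 5.32 to 12.98 TPM in injured muscle at 3 DPI, with overlap, and differed by 0.45 at 3 DPI (SE 0.209, adjusted p = 0.0402) and 0.79 at 7 DPI. On the size factor scale its difference was -0.11 and -0.12 at these times, so its direction depended on the scale. The log2 ratio of Cox4i1 to Cox4i2 differed by -1.36, -1.35, -0.84 and -0.71 at the 4 times, the last with overlap between the groups (exact permutation p = 0.00808, adjusted 0.00808).

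Ndufa4, long counted with complex I and now known as a subunit of complex IV, was at 1141 to 1324 TPM in contralateral and 375.5 to 679.9 TPM in injured muscle at 3 DPI, and fell by 1.06 (SE 0.115, limma adjusted p = 4.62e-14), with -0.14 at 28 DPI (adjusted p = 0.285). Its relative Ndufa4l2, known as a gene induced in low oxygen, was at 11.1, 8.54, 7.69 and 11.98 TPM in contralateral muscle and 12.07 to 37.12 TPM with a median of 24.39 TPM in injured muscle, and rose by 1.05 at 3 DPI (SE 0.229, adjusted p = 2.36e-05) and 1.35 at 7 DPI, with 0.77 at 14 DPI and 0.47 at 28 DPI, the last not passing (adjusted p = 0.0607). On the size factor scale it was 0.45, 0.40, 0.15 and -0.01. The log2 ratio of Ndufa4 to Ndufa4l2 differed by -2.27, -1.94, -1.04 and -0.61.

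Cox6b2, the form of subunit 6b known from testis, was near the limit of 1 TPM, at 0.48, 0, 0 and 0.42 TPM in control, 1.54, 0.18, 0.73 and 0.74 TPM in contralateral and 1.41 to 5.51 TPM in injured muscle at 3 DPI, and 2.45 to 6.98 TPM at 7 DPI. It rose by 1.23 at 3 DPI (SE 0.234, limma adjusted p = 1.81e-06), 1.90 at 7 DPI, 0.82 and 0.76. With size factors it was at 0.84, 1.37, 0.62 and 0.57, so that it stayed above 0 but was within the fold limit at 3 DPI. Cox7a2, the widely expressed form of subunit 7a, did not behave like Cox6a1 and Cox8a: it was at 1033 to 1180 TPM in contralateral and 478.3 to 691.1 TPM in injured muscle at 3 DPI and fell by 0.84 (SE 0.0872, adjusted p = 5.87e-15). Its muscle partner Cox7a1 was not analysed here.

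**Figure D5:**
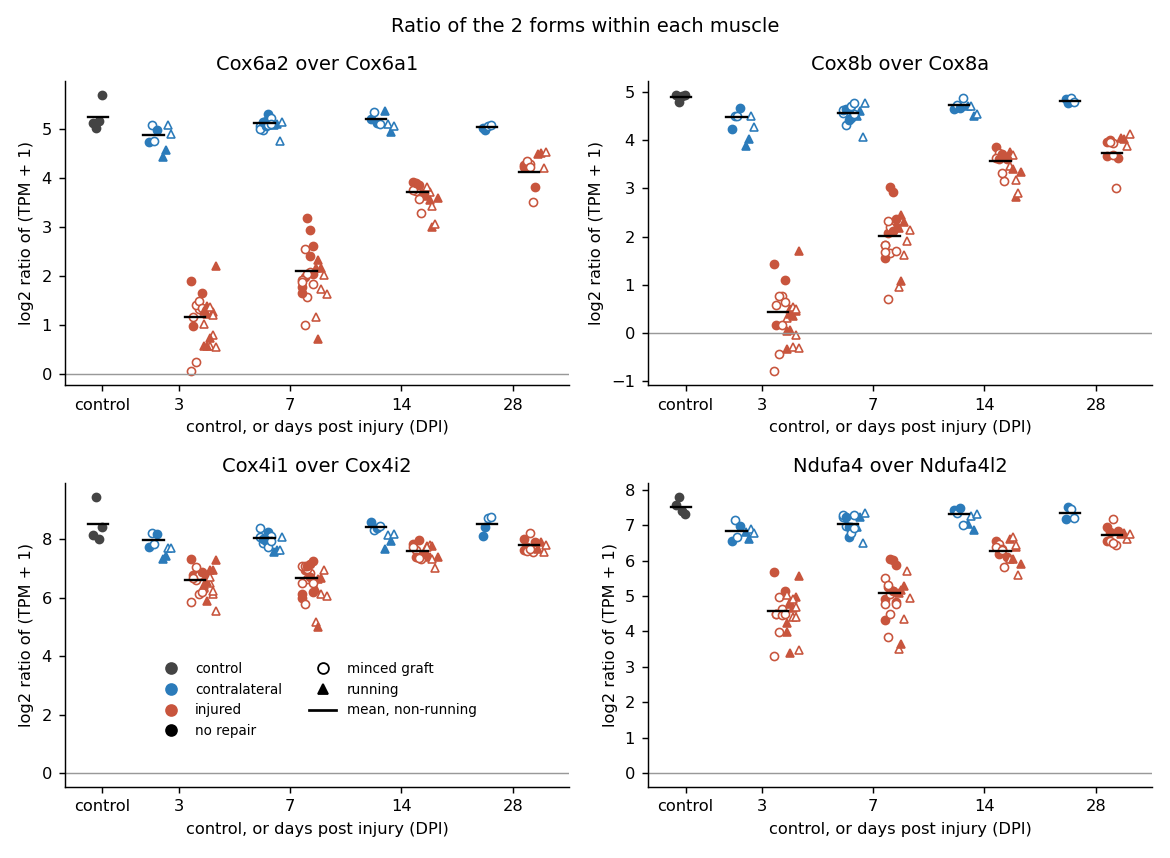
Log2 ratio of TPM plus 1 (y axis) of the first to the second gene of 4 pairs in each muscle, by group and DPI (x axis), with symbols as in the plot of summed levels. The ratios of Cox6a2 to Cox6a1 and of Cox8b to Cox8a fall from means of 4.89 and 4.48 in contralateral to 1.16 and 0.44 in injured muscle at 3 DPI.

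Between successive days, injured muscle gained most members from 3 to 7 and from 7 to 14 DPI. From 3 to 7 DPI 67 members rose and 2 fell by adjusted p (background 23.1% and 38%), with a median of 0.37 against -0.07 for all genes. Of these only Cox8b passed the fold limit (background 2.24% higher and 4.71% lower), at 1.21 (SE 0.118, limma adjusted p = 3.28e-15), from a median of 873.3 to 2108 TPM, and the 2 that fell were Cox6a1 (-0.47) and Cox8a (-0.24). From 7 to 14 DPI 54 rose and 8 fell by adjusted p (background 9.45% and 69.7%), with a median of 0.34 against -0.39, and 1 member, Cox6b2, was called, lower by 1.13 (background 8.02% lower and 0.865% higher). With size factors this call was lost and 11 members were called higher, where 2.33% of all genes were called lower and 2.83% higher. Cox6a2 rose by 0.83 and Atp5b by 0.82 in this step, while Cox8a fell by 0.83 and Ndufa4l2 by 0.85. From 14 to 28 DPI 0 members were called by limma (background 1.13% in either direction). By adjusted p alone 3 passed (background 16.3%), Ndufb11 at 0.33, Cox7c at 0.24 and Ndufb6 at 0.20, which were named after their values were seen.

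The test of the injury difference at 28 DPI less that at 3 DPI called 9 members higher and 1 lower (background 6.83% and 15.5%), and by adjusted p alone 63 and 2 (background 22.1% and 35.9%), with a median of 0.65 against -0.13 for all genes. Of the members higher by this test Cox8b changed most, by 2.05 (SE 0.239, limma adjusted p = 7.9e-12), followed by Cox6a2 at 1.28. The 2 that fell were Cox6a1 by 1.42 (SE 0.197, adjusted p = 2.51e-09) and Cox8a by 0.77 (adjusted p = 0.000215). Among the 11 members that did not pass were Cox4i2 (0.08, adjusted p = 0.827), Cox6b2 (-0.47, adjusted p = 0.223), Ndufa4l2 (-0.58, adjusted p = 0.119) and Ndufaf5 (0.10, adjusted p = 0.521).

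Contralateral muscle was compared with control over all days. By limma 0 of 76 members were called (background 1.39%), and 1 passed by adjusted p alone, where 24.8% of all genes did. This was Ndufa1, an accessory subunit of complex I named after its value was seen, at 0.31 (SE 0.0786, adjusted p = 0.00279). With size factors Ndufa1 did not pass (0.06, adjusted p = 0.651), 0 members were called, and by adjusted p alone 10 were lower and 0 higher, where 12.4% and 15.2% of all genes were.

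The minced graft was compared with no repair in injured muscle of non-running rats. By limma 0 members were called at 3, 7, 14 and 28 DPI, where the background in either direction was 0.00883%, 0.0883%, 0.0265% and 0.0%. The smallest limma adjusted p of a member was 0.160, 0.0541, 0.730 and 0.999. At 3 DPI the summed level was 32201, 32886 and 34049 TPM without repair and 22864 to 32407 TPM with a median of 29831 TPM in 7 grafted muscles, so that the groups overlapped. The median member differed by -0.17, -0.04, -0.02 and -0.06 at the 4 times, where the median of all tested genes was 0.14, 0.11, 0.12 and 0.07. With size factors the median member differed by -0.34, -0.16, -0.16 and -0.14, and 0 members were called. The members farthest from 0 at 3 DPI were Cox8b at -0.57 (SE 0.191, adjusted p = 0.173) and Ndufa4l2 at 0.50 (SE 0.26, adjusted p = 0.302), with Cox6a2 at -0.40 (SE 0.167, adjusted p = 0.24). At 7 DPI, when 8.19% of all genes differed by adjusted p alone, the members nearest to passing included Cox8a at 0.31 (SE 0.107, adjusted p = 0.0541) and Cox6a1 at 0.32 (SE 0.114, adjusted p = 0.0626). Fitted to non-running rats alone, 1 member was higher at 7 DPI by adjusted p alone, where 9.1% of all genes were. Without rat TS5.011 it was also 1, where 10.7% of all genes were. The log2 ratio of Cox8b to Cox8a at 3 DPI was 0.89 ± 0.66 (SD, n = 3) without repair and 0.24 ± 0.63 (SD, n = 7) with the graft.

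Running was compared with no running, both repair arms together. The injured sums of running rats ranged from 24751 to 36817 TPM at 3 DPI, 34763 to 50543 TPM at 7 DPI, 44834 to 62360 TPM at 14 DPI and 56859 to 60281 TPM at 28 DPI, and overlapped those of non-running rats on every day. By limma 0 members were called between running and non-running injured muscle at any of the 4 times (background 0.0177%, 0.0%, 0.0% and 0.309% in either direction). The median member differed by -0.09, -0.02, -0.03 and 0.00, where the median of all tested genes was 0.02, 0.00, 0.04 and -0.09. With size factors the median member differed by -0.12, -0.02, -0.07 and 0.11. Atp5g2 came nearest at 3 DPI, at -0.16 (adjusted p = 0.0532, named after its value was seen), and Cox4i2 had the largest difference at 7 DPI, at 0.56 (SE 0.149, adjusted p = 0.174). At 28 DPI, with 4 running muscles, Cox8a was at -0.34 (SE 0.131, adjusted p = 0.189) and Cox6a1 at -0.34 (SE 0.14, adjusted p = 0.237). In contralateral muscle 0 members were called (background 0.0%), and the smallest limma adjusted p of a member was 0.293. The mean log2 ratio of Cox6a2 to Cox6a1 in running injured muscle was 1.06, 1.74, 3.48 and 4.44 at the 4 times, and that of Cox8b to Cox8a 0.27, 1.83, 3.32 and 4.03.

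Other mitochondrial genes were described from lists, by their counts and medians, beside 6.39% of all tested genes called lower and 34.8% called higher at 3 DPI. Of complex III and cytochrome c, 4 of 12 listed genes were among the symbols used, which ended at Tubb3 in alphabetical order, so that the Uqcr genes of complex III were not analysed here. Of the 4, 2 were called lower at 3 DPI, cytochrome c1 (Cyc1) at -1.10 and cytochrome c (Cycs) at -1.06. Of 16 genes of the tricarboxylic acid cycle and pyruvate dehydrogenase, 9 were called lower at 3 DPI and 15 fell by adjusted p, with medians of -1.03, -0.60, -0.39 and -0.31 at the 4 times, close to those of complexes I, II and V at 3 DPI. Malate dehydrogenase (Mdh2) was at -1.44 and citrate synthase (Cs) at -1.03 at 3 DPI.

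The genes that build the complexes were also described on both scales. At 3 DPI 6.39% and 34.8% of all tested genes were called lower and higher. By adjusted p alone 18.8% and 64.1% were, and with size factors 39% and 43.1%. Of 15 genes for the assembly of complex IV, 1 was called lower at 3 DPI and 7 fell and 3 rose by adjusted p, with medians of -0.21, 0.09, 0.09 and 0.01. With size factors all 15 fell and 0 rose at 3 DPI, with medians of -0.77, -0.82, -0.59 and -0.50. Of 12 assembly genes of complexes I, II and V outside the members, 3 were called lower and 1 higher at 3 DPI with a median of -0.18, or -0.80 with size factors, where 11 fell and 1 rose by adjusted p. The one called higher was Atpif1, the inhibitor of ATP synthase, at 1.34. Of 6 carriers and mitochondrial kinases, 3 were called lower and 1 higher at 3 DPI: the adenine nucleotide translocase of muscle, Slc25a4, fell by 1.72 and mitochondrial creatine kinase, Ckmt2, by 2.05. The translocase form of other tissues, Slc25a5, rose by 3.14, and by 0.96 at 28 DPI by adjusted p. Of 16 regulators of mitochondrial genes 4 were called lower and 1 higher at 3 DPI, with medians of -0.47, 0.22, 0.08 and 0.08 at the 4 times and of -1.07, -0.75, -0.57 and -0.42 with size factors. The list was mixed: by adjusted p alone 10 were lower and 5 higher at 3 DPI, and 6 lower and 9 higher at 7 DPI. At 7 DPI 11.1% of all tested genes were lower and 80.5% higher at that limit. Perm1, a muscle coactivator of these genes, was at -3.30, -2.34, -1.23 and -0.91 at the 4 times. Ppargc1a, the coactivator known as PGC-1 alpha and named after its values were seen, was at -2.01 at 3 DPI (SE 0.223) and -0.07 at 14 DPI.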

How the data were processed

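Total RNA of whole TA muscle was sequenced by the authors, quantified with kallisto against rat build 6.0 with default settings per the study's methods, and deposited as TPM per gene symbol. DESeq is also listed in the submitters' processing notes, with no version for either tool. The deposited TPM table ended in an incomplete row, which was left out, so that 16181 symbols up to Tubb3 in alphabetical order remained, later symbols were not analysed here, and columns summed to 95.0% to 99.9% of the full TPM total. Libraries with fewer than 7000 symbols above 1 TPM were dropped (13 of 129 mapped libraries), libraries of 1 muscle were averaged, and 9 samples with conflicting labels entered no comparison. A model of 31 group means for 114 muscles (83 residual degrees of freedom) was fitted to log2(TPM + 1) with limma 3.58.1 (R 4.3.3) and an intensity trend, with Benjamini-Hochberg adjustment over 11328 genes, after tests on simulated data. Isoform ratios were compared by two-sided permutation tests (scipy 1.17.1), exact where either group held fewer than 10 muscles and otherwise with 100000 resamples, adjusted over 4 pairs and 4 days. The planned Cox7a1 pair could not be computed. Named members were both genes of each pair, complex II, the 2 highest of each other complex in control, the 3 lowest and 3 highest differences of each day and every member called higher, and of other lists up to 3 genes highest in control. Other genes were named after their values were seen. The members, lists and tests were chosen with earlier results of these data known. Both muscles were kept for 36 of 78 rats, the 2 control rats among them, with a within-rat correlation of 0.0261.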

Additional observations from a re-analysis of the deposited data

Results flagged for a closer look

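Within groups of 4 to 10 muscles, 464 series of values (summed levels and named members) were examined for 1 muscle standing far from the rest, and 42 held one, where chance gives about 1 in 20. These are values only, with no cause tested. In 3 DPI unrepaired running rats, rat TS5.098 was highest for complex II (1376.69 TPM, the others 829.66 to 1054.46 TPM), Cox8b (1339.57 TPM, the others 493.06 to 853.26 TPM), Sdha (229.24 TPM), Sdhb (414.0 TPM), Sdhd (377.31 TPM), Ndufb9 (561.07 TPM), Atp5a1 (1283.93 TPM), Ndufs3 (228.53 TPM), Atp5g1 (691.44 TPM) and Ndufa8 (242.06 TPM), and rat TS5.029 was highest for Cox4i2 (15.37 TPM), Ndufa4l2 (53.74 TPM) and Cox6b2 (6.92 TPM). At 14 DPI the grafted running rat TS5.136 was lowest for all members (48895.51 TPM, the others 53241.76 to 53660.98 TPM), complex I (12458.17 TPM), complex IV (16494.07 TPM) and Cox4i1 (1447.1 TPM). The right TA of control rat TS4.038 was highest for Cox6a2 (5259.64 TPM) and Cox8b (4213.19 TPM) and lowest for Atp5b (2183.69 TPM).

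In grafted non-running rats, rat TS5.023 was highest at 7 DPI for Cox6a1 (648.14 TPM), Cox8a (773.24 TPM) and Cox4i2 (18.99 TPM), and rat TS5.076 at 28 DPI for Cox6a1 (278.85 TPM) and Cox8a (409.19 TPM). Rat TS5.009 was lowest at 3 DPI for Cox4i1 (801.51 TPM) and rat TS5.135 highest at 14 DPI for Ndufa4l2 (16.14 TPM). In unrepaired non-running rats, rat TS5.082 was lowest at 28 DPI for Cox7a2 (901.81 TPM) and Cox8b (3011.51 TPM), rat TS5.081 highest at 28 DPI for Cox8a (313.19 TPM), rat TS5.137 highest at 14 DPI for Cox8b (3583.8 TPM), rat TS5.129 lowest at 14 DPI for Ndufaf3 (37.3 TPM) and rat TS5.125 highest at 7 DPI for Ndufs3 (338.15 TPM). In running rats, rat TS5.134 was lowest at 14 DPI without repair for Cox6a2 (2084.74 TPM) and Cox4i2 (5.4 TPM), rat TS5.130 highest in that group for Ndufa4 (1202.94 TPM), rat TS5.025 highest at 3 DPI with a graft for Ndufa4l2 (47.89 TPM), and rat TS5.031 at 7 DPI without repair was highest for Cox4i2 (32.8 TPM) and Ndufa4l2 (52.26 TPM) and lowest for Atp5g1 (515.78 TPM). In contralateral muscle at 7 DPI, rat TS5.105 was highest for Ndufs7 (851.93 TPM, no repair) and rat TS5.016 lowest for Ndufa8 (387.62 TPM, graft).

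The injury difference at 28 DPI less that at 3 DPI was past both limits of the limma test (Benjamini-Hochberg) in 10 members. It was 2.05 for Cox8b, 1.28 for Cox6a2, 1.16 for Ndufv3, 1.13 for Sdha, 1.11 for Ndufs7, 1.06 for Atp5b, 1.04 for Atp5i, 1.03 for Ndufa9 and 1.00 for Atp5a1. For Cox6a1 it was -1.42.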

How the results depend on the processing

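Injured against control gave 30, 11, 2 and 1 calls in either direction at 3, 7, 14 and 28 DPI and injured against contralateral 30, 8, 1 and 1. With the rat as a replicate block these were 30, 11, 2 and 1 and 30, 8, 1 and 1, and no count changed by more than 1.5 times. With size factors they were 71, 68, 23 and 6 and 65, 67, 38 and 2, with 11, all higher, for 14 against 7 DPI and 16 in place of 10 for the injury difference at 28 less 3 DPI. With all libraries kept they were 13, 20, 1 and 0 against control and 19 at 3 DPI and 0 at 14 and 28 DPI against contralateral, where the 8 at 7 DPI were 1 lower and 7 higher in place of 4 and 4, with 0 for 7 against 3 DPI and for 28 less 3 DPI, and at 7 DPI the ratios of Cox8b to Cox8a and of Cox4i1 to Cox4i2 differed by -1.35 (permutation test with 100000 resamples, adjusted p = 0.239) and -0.41 (adjusted p = 0.615). There, with 2 more contralateral muscles of few symbols, 7 DPI differences changed sign for Atp5g1 (0.05), Cox4i1 (0.68), Cox7a2 (0.67), Cox8b (0.43), Ndufa8 (0.12), Ndufaf3 (0.42), Ndufaf5 (0.52), Ndufs6 (0.58), Sdha (0.02), Sdhb (0.40), Sdhc (0.30) and Sdhd (0.12). With size factors Cox4i2 changed sign at 3 DPI (-0.11) and 7 DPI (-0.12) and Ndufa4l2 at 28 DPI (-0.01), and leaving out muscles in turn gave -0.05 to 0.01 for Cox8b and -0.08 to 0.02 for Ndufaf5 at 28 DPI, both above 0 without rat TS5.082. A pseudocount of 0.1 TPM gave 2 calls against control at 28 DPI, 2 and 2 against contralateral at 14 and 28 DPI, and 1 for contralateral against control. By adjusted p alone the counts against control were 71, 67, 40 and 19, or 64 lower and 7 higher, 60 and 7, 32 and 8, and 11 and 8. These counts were the same without the intensity trend. In that fit 10.6% and 74.7%, 9.4% and 78.8%, 6.6% and 65.6%, and 3.9% and 67.9% of all genes were lower and higher. The counts were 73, 73, 60 and 41 against contralateral and 1 for contralateral against control. They were 69, 62 and 3 for successive days and 65 for 28 less 3 DPI. The shares of all genes for these are given with each result above. Testing every symbol, no intensity trend, each library as a sample and non-running rats alone kept every count within 1.5 times.

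Muscles were left out in turn only in groups of 2 to 5 muscles, 71 in all, which at 3 DPI meant 7 of the 14 injured and contralateral muscles and at 7 DPI 4 contralateral or control and 0 injured muscles. This gave 27 to 35, 9 to 16, 1 to 4 and 1 to 2 calls against control, and 27 to 31, 8 to 10, 0 to 2 and 0 to 1 against contralateral. Injured against control at 14 DPI gave 1 without rat TS5.137 and 4 without rat TS5.141, and at 28 DPI 2 without either control muscle of rat TS4.037 (left) or rat TS4.038 (right). Injured against contralateral at 14 DPI gave 0 without rat TS5.137 and 2 without rat TS5.129, TS5.135, TS5.139 or TS5.141, and at 28 DPI 0 without rat TS5.076. The injury difference at 28 less 3 DPI gave 8 to 13. Ratios of Cox6a2 to Cox6a1 differed by -3.81 to -3.66, -3.03 to -3.00, -1.52 to -1.42 and -0.95 to -0.83, of Cox8b to Cox8a by -4.15 to -3.98, -2.58 to -2.55, -1.20 to -1.10 and -1.13 to -0.99, of Cox4i1 to Cox4i2 by -1.45 to -1.29, -1.36 to -1.33, -0.90 to -0.79 and -0.85 to -0.62, and of Ndufa4 to Ndufa4l2 by -2.39 to -2.16, -1.98 to -1.92, -1.15 to -0.98 and -0.67 to -0.55. Without the injured muscle of rat TS5.011, an alternative chosen after seeing the data, 7 DPI gave 9 calls against control and 8 against contralateral. The cause of these changes was not tested. TPM does not give the depth of each library, many groups held 2 muscles, and control was 4 muscles of 2 rats.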

Other observations

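The labels of 9 libraries conflict and put them in no group, so their values are given alone. For 4 running rats at 28 DPI the titles and the other labels name opposite muscles. In the libraries with Inj in the title, the members summed to 65752 TPM (rat TS5.077), 62132 TPM (rat TS5.078), 67713 TPM (rat TS5.079) and 73953 TPM (rat TS5.080), with Cox6a1 at 119.45, 109.74, 127.86 and 158.22 TPM and Cox8a at 118.28, 124.29, 128.57 and 159.26 TPM. In those with Ctrl in the title the sums were 67504, 63817, 61920 and 55522 TPM, with Cox6a1 at 161.91, 165.9, 182.14 and 183.84 TPM and Cox8a at 189.33, 222.52, 232.81 and 242.49 TPM in the same order of rats. A first contralateral library of rat TS5.011, labelled with another day, summed to 65300 TPM, with Cox6a1 at 146.0 TPM and Cox8a at 149.33 TPM.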
